A study of Mus musculus with 6 samples.

Results

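Haem is built by a chain of enzymes that starts in the mitochondrion, runs through the cytosol and ends in the mitochondrion again. Alas2 is the erythroid form of the first, rate-limiting enzyme. Alad, Uros and Urod work in the cytosol, Cpox and Ppox carry out the late oxidation steps, and Fech inserts iron into protoporphyrin to give haem. In maturing red cell precursors these genes are switched on by erythroid factors such as GATA1 and KLF1, and translation of the Alas2 transcript depends on iron. The 7 genes described here are Alas2, Alad, Uros, Urod, Cpox, Ppox and Fech, taken by name from the pathway, out of 17042 genes listed in the tables of all 6 libraries. Each was followed as unique molecular identifier (UMI) counts per library across 3 bins of haemoglobin share, the percentage of a barcode's UMIs that came from Hba-a1, Hba-a2, Hbb-bs and Hbb-bt.

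The libraries were made from mouse spinal cord by Drop-seq, a droplet method that counts the 3′ ends of transcripts of single cells. The cords had been dissociated with Accutase, cleared of myelin and passed over a density gradient to select living cells. The 3 groups had 2 libraries each: SOD1-Nec (genotype SOD1-G93A, treated with the RIPK1 inhibitor Necrostatin-1s), SOD1-Veh (genotype SOD1-G93A, given vehicle) and WT-Veh (wild type, given vehicle). SOD1-G93A denotes a mutant human SOD1 carried as a transgene in a mouse model of amyotrophic lateral sclerosis; the labels used here give no promoter, age or number of animals per library. Nothing says that the libraries of a group came from separate animals, so p-values measure only the spread between these libraries, which may be technical.

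Of 21919 barcodes, 3360 had at least 200 genes and at most 20% mitochondrial UMIs, between 399 and 794 per library, with 437808 to 653158 UMIs in total per library and a median of 600.0 UMIs per barcode. Sod1 had 44.5 and 53.9 UMIs per 10000 UMIs for SOD1-Nec and 41.4 and 53.1 for SOD1-Veh, against 2.13 and 1.79 in the WT-Veh libraries, so the libraries matched their genotype labels. The under 10% haemoglobin bin held 2843 barcodes, the 10 to 50% bin 283 and the over 50% bin 234. Only 1 barcode sequence was found in 2 libraries. The 3 libraries numbered 1 listed the same 18169 genes and the 3 numbered 2 the same 18650, so each group had 1 library in each of 2 sets of tables. Skeletal muscle markers were counted only in SOD1-Veh, at 63.2 and 126.2 UMIs per 10000 under 10% haemoglobin and up to 6.85 in the upper bins.

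The haemoglobin bins were checked with marker lists that leave haemoglobin out. The 10 early erythroid markers summed to 7.92 to 19.2 UMIs per 10000 non-haemoglobin UMIs under 10% haemoglobin, 91.1 to 264.4 in the 10 to 50% bin and 162.4 to 267.2 in the over 50% bin. The late markers summed to 4.87 to 6.16, 61.0 to 102.9 and 240.0 to 496.5 in the same order of bins. The late sums of the 3 bins did not overlap, so the order of the bins is also an order of late erythroid marker level. Other cells shared the 10 to 50% bin: neutrophil markers ranged there from 3.65 to 353.8 UMIs per 10000 and oligodendrocyte markers from 60.3 to 225.1. All levels below are UMIs per 10000 non-haemoglobin UMIs of a library's bin, so the haemoglobin that defines the bins does not enter them. In such sums, fewer cells of a type and less RNA per cell cannot be told apart. Counts were not divided by transcript length, so each gene is compared only with itself, or by how much it changed.

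Each of the 7 genes had a higher level in the over 50% bin than in the under 10% bin in all 6 libraries, with no overlap between the bins. Alas2 showed the widest difference and went on increasing into the over 50% bin. Fech did the same by less, Urod was higher over 50% than at 10 to 50% by a smaller step, the second steps of Uros and Ppox did not pass the test, and those of Alad and Cpox lay near 0, a mean over barcodes that differed widely within the over 50% bin. Tests of the bins used the quasi-likelihood F test of edgeR on the 18 sums of library and bin, with the library as a block and Benjamini-Hochberg adjustment over the 631 genes that passed the count minimum; a gene is called at an adjusted p under 0.05. Bins of different cells differ in many genes: 80.8% of the tested genes were called between the over 50% and under 10% bins, and 35.8% of the tested genes were higher over 50%. Of the 7 enzymes, 5 passed the minimum and each was called higher, but a gene reaches the minimum only through the bins where it is high, so that count is no evidence about the pathway. Uros and Ppox lay under the minimum and have values from a fit without it.

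**Figure D1:**
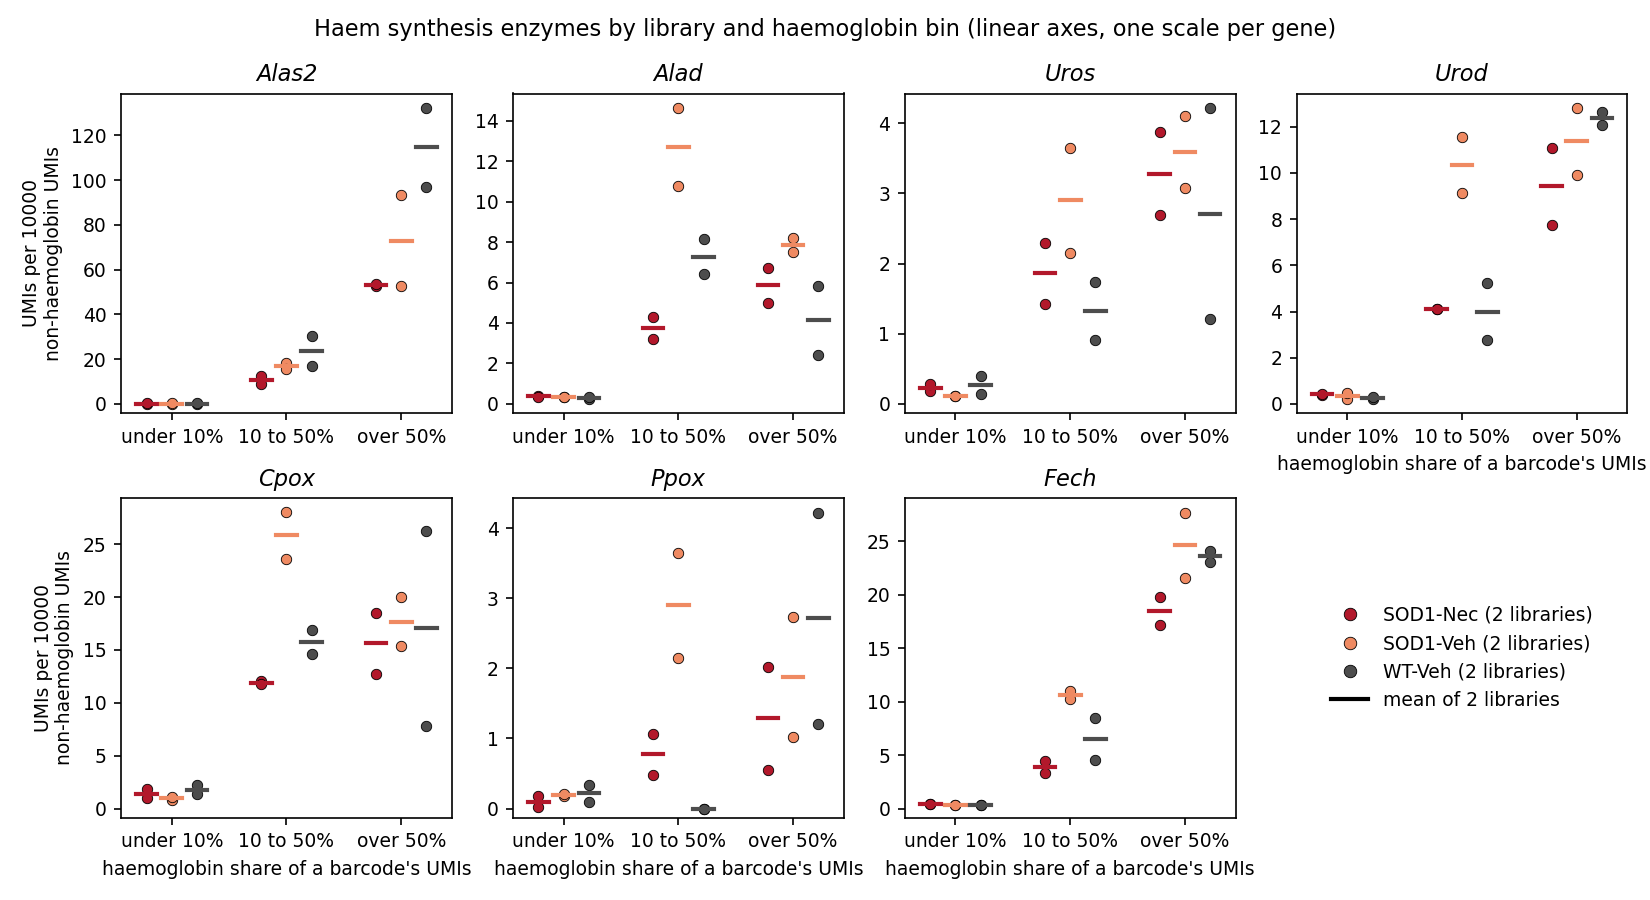
Level of each of the 7 enzymes (UMIs per 10000 non-haemoglobin UMIs, linear axes, one scale per gene) in the 3 haemoglobin bins. Points are libraries coloured by group and lines are means of 2 libraries. Alas2 and Fech stand highest in the over 50% bin in every library. Alad stands higher in the 10 to 50% bin in both SOD1-Veh and both WT-Veh libraries, and Cpox in both SOD1-Veh libraries and WT-Veh library 2.

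Alas2, the entry enzyme, had few UMIs in the lowest bin. Under 10% haemoglobin its count was 6 and 10 UMIs for SOD1-Nec, 4 and 8 for SOD1-Veh and 5 and 11 for WT-Veh, a level of 0.117 to 0.260. The 10 to 50% bin had levels of 12.7 and 8.86 in SOD1-Nec, 18.3 and 15.6 in SOD1-Veh and 17.2 and 30.2 in WT-Veh. Over 50% haemoglobin it was 52.7 and 53.4 in SOD1-Nec, 93.3 and 52.7 in SOD1-Veh and 97.1 and 132.1 in WT-Veh. The lowest library of each bin stood above the highest library of the bin before it. The fitted log2 fold change was 8.38 (SE 0.25, 333.7-fold, adjusted p = 1.632e-15 by edgeR) for over 50% minus under 10%. It was 5.86 (SE 0.25, adjusted p = 9.397e-13 by edgeR) for 10 to 50% minus under 10%. The second step, over 50% minus 10 to 50%, was 2.53 (SE 0.19, 5.76-fold, adjusted p = 1.501e-08 by edgeR).

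The upstream sequence of Alas2 is shown beside that of Cpox, because these genes took different paths at high haemoglobin. Both windows run from 150 to 51 bases before the RefSeq transcription start on the plus strand of build GRCm38.p6, at chrX:150547267-150547366 for Alas2 and chr16:58670058-58670157 for Cpox; the deposited counts were made on another build, and the match is by gene symbol. Capitals mark GATAA or its reverse complement TTATC, a form of the core that GATA factors bind. They also mark CACCC or its reverse complement GGGTG, the core that KLF factors bind. Other strings that hold GATA were not searched for and stay in lower case.
Alas2: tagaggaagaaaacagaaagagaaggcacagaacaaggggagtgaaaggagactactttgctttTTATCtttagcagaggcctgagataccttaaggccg
Cpox: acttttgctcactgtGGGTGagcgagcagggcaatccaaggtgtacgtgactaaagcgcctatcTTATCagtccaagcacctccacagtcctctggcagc
Each window held 1 GATAA match, read as TTATC, 86 to 82 bases before the start, and Cpox held 1 CACCC match as well. Windows were read for 6 of the 7 enzymes, Fech not among them. Of 32851 promoters in the same RefSeq table, 9.54% held GATAA and 26.8% held CACCC on either strand of the same window. The first of 2 Uros starts held 1 GATAA match and the other neither motif, and the windows of Alad, Urod and Ppox held neither motif. A match is a string of letters and was not tested as a binding site.

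Among the cytosolic enzymes, Alad joins aminolaevulinic acid into porphobilinogen, and its levels in the upper bins overlapped. Under 10% haemoglobin its level was 0.382 and 0.364 in SOD1-Nec, 0.321 and 0.344 in SOD1-Veh and 0.222 and 0.331 in WT-Veh. At 10 to 50% it was 4.28 and 3.21 in SOD1-Nec, 14.6 and 10.8 in SOD1-Veh and 8.14 and 6.41 in WT-Veh. Over 50% it was 4.99 and 6.72 in SOD1-Nec, 8.20 and 7.53 in SOD1-Veh and 5.84 and 2.41 in WT-Veh. The over 50% bin was higher than the 10 to 50% bin in 2 of 6 libraries, both of them SOD1-Nec. The first step was 3.81 on the log2 scale (SE 0.29, adjusted p = 2.457e-09 by edgeR), and the second step was 0.06 (SE 0.29, adjusted p = 0.8688 by edgeR). The direction of that second step was not stable: it turned to -0.23 without TMM scaling factors, and with bins cut at 20% and 60% it was -1.45 with an adjusted p of 0.005894 (edgeR).

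Uros, which closes the ring of uroporphyrinogen, was sparse. Its level lay between 0.115 and 0.402 under 10% haemoglobin. At 10 to 50% it was 1.43 and 2.29 in SOD1-Nec, 3.65 and 2.15 in SOD1-Veh and 1.75 and 0.916 in WT-Veh, from 1 to 15 UMIs a library. Over 50% haemoglobin it was 3.88 and 2.69 in SOD1-Nec, 4.10 and 3.08 in SOD1-Veh and 4.22 and 1.21 in WT-Veh. All 6 libraries had the higher level over 50%, but the ranges overlapped. In the fit of 16502 genes without a count minimum, Uros was 3.40 higher on the log2 scale over 50% than under 10% (adjusted p = 2.4e-12 by edgeR), and the second step was 0.78 (adjusted p = 0.5644 by edgeR).

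Urod, which trims the side chains of uroporphyrinogen, had levels of 0.198 to 0.487 under 10% haemoglobin. It had 4.12 and 4.13 in SOD1-Nec, 11.6 and 9.14 in SOD1-Veh and 5.23 and 2.75 in WT-Veh in the 10 to 50% bin. Over 50% it had 7.76 and 11.1 in SOD1-Nec, 12.8 and 9.93 in SOD1-Veh and 12.7 and 12.1 in WT-Veh. The level was higher over 50% in 6 of 6 libraries, by little in SOD1-Veh, and the ranges overlapped. The first step was 3.51 on the log2 scale (SE 0.31, adjusted p = 1.821e-08 by edgeR) and the second 1.21 (SE 0.29, adjusted p = 0.001683 by edgeR). The second call was lost in 3 of 20 alternatives, with an adjusted p of up to 0.07545.

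Cpox, the mitochondrial coproporphyrinogen oxidase, was the member with most UMIs outside erythroid barcodes, at levels between 0.846 and 2.20 under 10% haemoglobin. At 10 to 50% its level was 12.1 and 11.8 in SOD1-Nec, 28.0 and 23.7 in SOD1-Veh and 16.9 and 14.7 in WT-Veh. Over 50% it was 12.8 and 18.5 in SOD1-Nec, 19.98 and 15.4 in SOD1-Veh and 26.3 and 7.84 in WT-Veh. The level was higher over 50% in 3 libraries and lower in the other 3, with WT-Veh split between both. The first step was 3.07 on the log2 scale (SE 0.29, adjusted p = 5.072e-08 by edgeR) and the second 0.25 (SE 0.29, adjusted p = 0.4671 by edgeR). The second step turned to -0.93 with bins cut at 20% and 60% (adjusted p = 0.01646 by edgeR), to -0.03 without TMM factors and to -0.04 without WT-Veh library 1.

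Ppox, which oxidises protoporphyrinogen just before Fech acts, was the sparsest member, with 20 UMIs in the 10 to 50% bin of all libraries together and 32 over 50%. Its level under 10% haemoglobin lay between 0.0214 and 0.331. In the 10 to 50% bin its level was 0.476 and 1.07 in SOD1-Nec and 3.65 and 2.15 in SOD1-Veh, and no UMI was counted in either WT-Veh library. Over 50% it was 0.554 and 2.02 in SOD1-Nec, 1.03 and 2.74 in SOD1-Veh and 4.22 and 1.21 in WT-Veh. The level was higher over 50% than in the 10 to 50% bin in 5 of 6 libraries, and the ranges overlapped. Without a count minimum, the difference between the over 50% and under 10% bins was 3.13 on the log2 scale (adjusted p = 4.649e-09 by edgeR) and the second step 1.03 (adjusted p = 0.4423 by edgeR).

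Fech, the last enzyme, increased in both steps of the bins. Under 10% haemoglobin its level lay between 0.321 and 0.433. At 10 to 50% it was 4.44 and 3.36 in SOD1-Nec, 10.96 and 10.2 in SOD1-Veh and 8.43 and 4.58 in WT-Veh. Over 50% it was 17.2 and 19.8 in SOD1-Nec, 27.7 and 21.6 in SOD1-Veh and 23.1 and 24.1 in WT-Veh. No library of the over 50% bin overlapped with one of the 10 to 50% bin. The first step was 3.55 on the log2 scale (SE 0.26, adjusted p = 1.011e-09 by edgeR) and the second 2.03 (SE 0.23, 4.09-fold, adjusted p = 8.473e-07 by edgeR).

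In the second step, 56.3% of the tested genes were called, 27.6% higher and 28.7% lower over 50% haemoglobin, so the calls of Alas2, Fech and Urod are of a kind met in many genes. The first step called 60.2% of the tested genes, 29.8% higher. TMM scaling bears on these directions: leaving it out moved the median log2 fold change of all tested genes by 0.26 for over 50% minus under 10%, by 0.51 for 10 to 50% minus under 10% and by -0.25 for over 50% minus 10 to 50%. Ratios between members of the same sum do not depend on it. The ratio of Alas2 to Cpox UMIs (0.5 added to each count) was 4.06 and 2.87 in SOD1-Nec, 4.62 and 3.40 in SOD1-Veh and 3.68 and 16.3 in WT-Veh over 50% haemoglobin. In the 10 to 50% bin it was 1.05 and 0.755 in SOD1-Nec, 0.656 and 0.663 in SOD1-Veh and 1.02 and 2.03 in WT-Veh. The ratio was higher over 50% in 6 of 6 libraries, 4.99-fold on average (geometric mean). The ratio of Alas2 to Alad was 5.73-fold higher on average, that to Uros 3.05-fold and that to Urod 2.38-fold, each in 6 of 6 libraries. That to Ppox was 2.12-fold and that to Fech 1.37-fold higher on average, each in 5 of 6. In the 10 to 50% bin the WT-Veh libraries had 0 Ppox UMIs, so their ratios to Ppox there, 119.0 and 67.0, were set by the added 0.5. All ratios given here were chosen after the levels were seen and are given with no test.

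**Figure D2:**
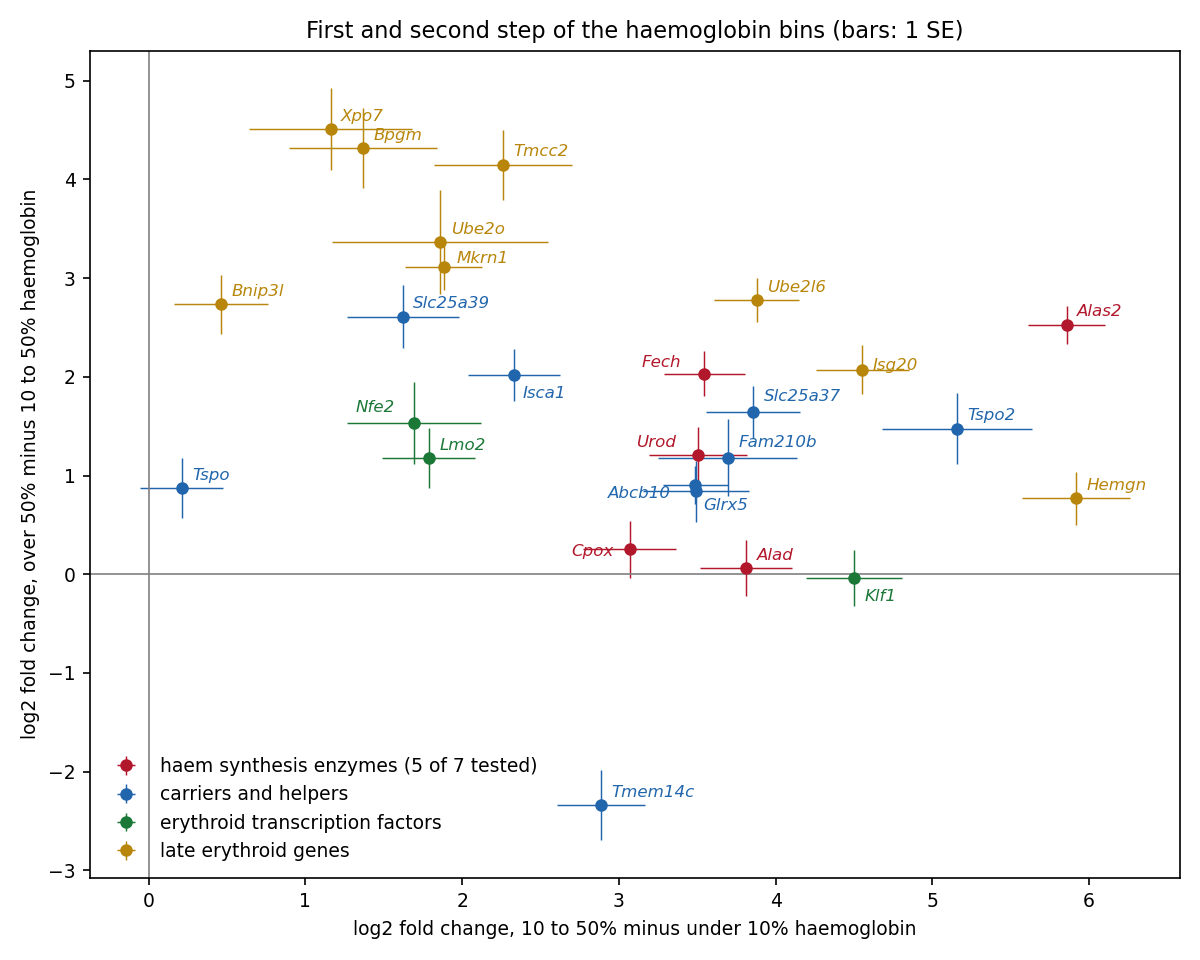
Log2 fold change of the first step (10 to 50% minus under 10% haemoglobin, x axis) against that of the second (over 50% minus 10 to 50%, y axis) for tested members of 4 gene lists, with bars of 1 SE. Alas2 lies at 5.86 and 2.53, Cpox and Alad lie near 0 on the y axis, the late erythroid genes lie mostly above Alas2 on the y axis, and Tmem14c lies at -2.34.

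Finer steps of haemoglobin share, with the 6 libraries summed, showed where the paths parted. Alas2 had 0.148 UMIs per 10000 at 0 to 2% haemoglobin, 6.68 at 10 to 20%, 22.8 at 40 to 50%, 38.8 at 50 to 60%, 62.8 at 60 to 70%, 107.5 at 70 to 80% and 170.2 (95% Poisson interval 150.4 to 191.9) at 80 to 100%. In these sums it had no peak within the measured range. By group, SOD1-Nec had 93.8 at 70 to 80% and 86.6 at 80 to 100%, the last from 17 UMIs of 4 barcodes. SOD1-Veh had 102.0 and 133.9 in these steps, and WT-Veh 122.1 and 219.4. Cpox had 13.04 at 10 to 20%, its highest level of 30.2 (25.8 to 35.1) at 50 to 60%, then 17.8 at 60 to 70% and 6.93 at 70 to 80%. At 80 to 100% no Cpox UMI was counted among 15685 non-haemoglobin UMIs of 32 barcodes, which allows a level of up to 2.35 by the exact Poisson interval. Alad likewise had its highest level, 11.5, at 50 to 60%, followed by 7.07, then 0.267 from 1 UMI, then 0. Uros and Ppox, at 5.03 and 3.05 at 50 to 60%, were also at 0 in the last step.

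Urod held on longer. Urod had its highest level, 13.6, at 70 to 80% and 3.19 (1.03 to 7.44) at 80 to 100%. Fech had 15.4 at 50 to 60%, 18.4 at 60 to 70%, 32.3 at 70 to 80% and 29.3 (21.5 to 39.1) at 80 to 100%. The intervals cover counting error only, and the steps sum libraries in unequal parts: 43 barcodes of SOD1-Nec, 6 of SOD1-Veh and 19 of WT-Veh at 40 to 50%, and 32, 20 and 18 in the same order at 50 to 60%. By group, Cpox had 25.4 in SOD1-Nec, 29.8 in SOD1-Veh and 36.6 in WT-Veh at 50 to 60%, the highest step of each group, though SOD1-Veh had 29.3 at 40 to 50% already. Alad had its highest step at 60 to 70% in SOD1-Nec (8.68, interval 4.48 to 15.16) and at 50 to 60% in SOD1-Veh (17.8, 12.06 to 25.2). In WT-Veh its highest step was at 5 to 10% (12.88, 3.51 to 32.98), from 4 UMIs of 3 barcodes. The WT-Veh level at 30 to 40% was 11.6 (6.47 to 19.08). Within each group the interval of the highest Alad step overlapped with those of other steps, so the place of its peak was not settled. At 70 to 80%, Cpox was at 5.58 in SOD1-Nec, 4.93 in SOD1-Veh and 9.60 in WT-Veh, and Alad had 1 UMI in SOD1-Nec and 0 in the others. Genes outside the enzymes framed these steps: Klf1, an erythroid transcription factor, had 9.34 at 50 to 60% and 0 at 80 to 100%, and Mki67, a proliferation marker, had 49.6 and 1.28. Bpgm, the late red cell enzyme that makes the allosteric effector of haemoglobin, had 2.51 at 50 to 60% and 99.5 at 80 to 100%.

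**Figure D3:**
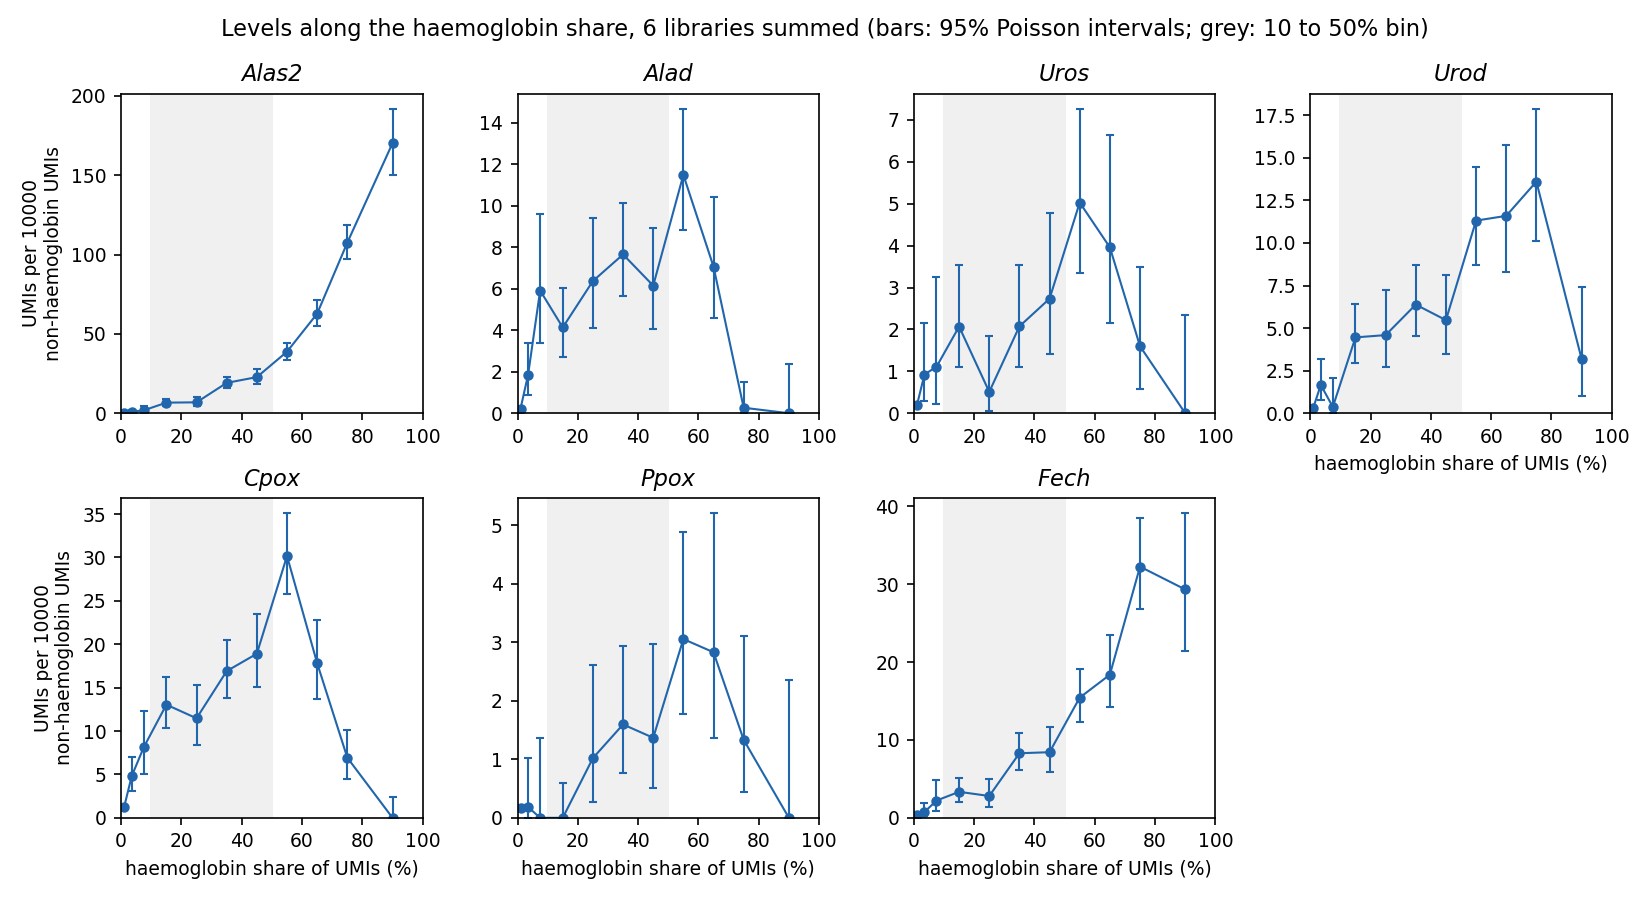
Level of each of the 7 enzymes (UMIs per 10000 non-haemoglobin UMIs) in finer steps of haemoglobin share, 6 libraries summed, with 95% Poisson intervals; the 10 to 50% bin is shaded. Alas2 climbs to 170.2 in the last step, Cpox has its highest value of 30.2 at 50 to 60%, and Alad, Uros, Cpox and Ppox are at 0 in the last step.

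The same parting was seen library by library when the over 50% bin was divided at 70% haemoglobin, a value chosen after the finer steps were seen, so that no test is given. The 102 barcodes at 70% and over held 53189 non-haemoglobin UMIs and the 132 below it 90811. Alas2 was higher at 70% and over in 6 of 6 libraries, with a median over libraries of 127.0 against 45.9 below 70%, and the ranges did not overlap (77.9 to 163.2 against 32.0 to 72.0). Fech was also higher in 6 of 6, with medians of 31.3 and 16.0. Cpox was lower at 70% and over in 6 of 6 libraries, with a range of 2.19 to 7.50 against 8.85 to 37.0. Alad had 1 UMI at 70% and over in all libraries together, against 88 below it, and Uros had 6 against 41; both were lower in 6 of 6 libraries. Urod was lower in 5 of 6, with medians of 10.3 and 12.6, and Ppox in 4 of 6.

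Early erythroid markers gave a second split, made within the haemoglobin bins and without the enzymes. Finding 3 markers in a barcode also depends on its depth, so this split is independent of neither haemoglobin share nor depth. In the over 50% bin, 104 barcodes had fewer than 3 of the 10 early markers and 130 had 3 or more. Summed over libraries, Alas2 had 92.4 UMIs per 10000 in the barcodes with fewer early markers and 69.3 in the others. Fech had 17.6 and 24.3, whereas it was higher at 70% haemoglobin and over. Cpox had 1.89 and 25.6 in the same order, Alad 0.840 and 8.82, Uros 0.420 and 4.67, and Urod 4.20 and 14.5. The median depth, haemoglobin included, was 1675 UMIs in the barcodes with fewer early markers and 1904.5 in the others. The part of depth in these values was not tested. At the other end, 36 barcodes under 10% haemoglobin carried at least 3 early markers. Cpox had 8.20 and Alad 3.22 in them, against 1.11 and 0.189 in the other 2807, while Alas2 had 0.553 against 0.167.

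Many transcripts of Alas2 and Fech, as of all genes together, lay in barcodes that the minimum of 200 genes leaves out. Of the UMIs of all genes, 32.05% were in retained barcodes and 58.8% in barcodes with under 200 genes. Those with under 200 genes and over 50% haemoglobin held 25.3%. Of 6983 Alas2 UMIs in all 21919 barcodes, 20.6% were in retained barcodes and 73.9% in barcodes with under 200 genes and over 50% haemoglobin. Haemoglobin itself was split alike, with 16.8% and 76.7%. Fech followed with 35.1% of its 1505 UMIs retained and 51.6% in those barcodes. Cpox had 74.6% of 1226 UMIs retained and 6.61% there, and Alad 77.6% of 379 and 5.28%. Urod lay between, with 62.2% of 566 UMIs retained and 18.7% there. The 3402 barcodes concerned had a median of 83 genes and 537 UMIs. Per 10000 non-haemoglobin UMIs they held 99.7 Alas2, against 76.9 in the retained over 50% barcodes, but 1.57 Cpox against 17.8, 0.387 Alad against 6.18 and 2.05 Urod against 11.1. Fech had 15.0 there against 22.1. Whether such barcodes hold late red cells or free RNA was not tested.

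**Figure D4:**
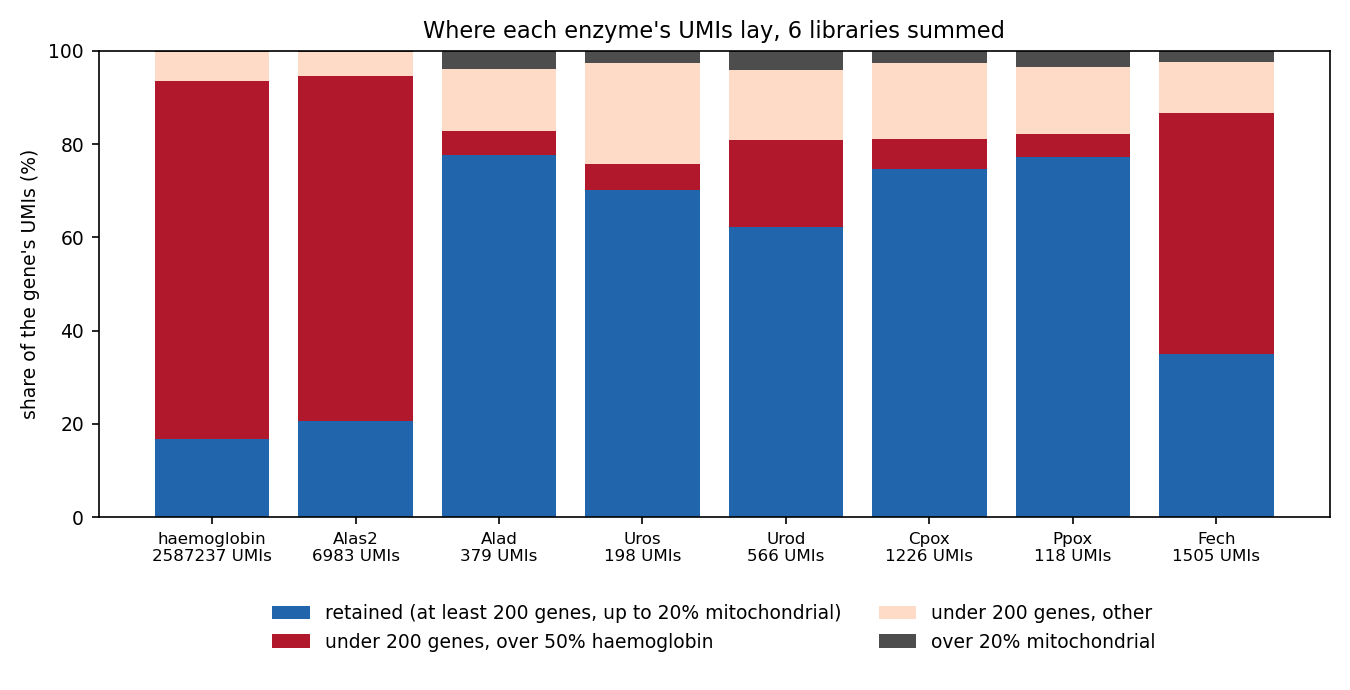
Share of each gene's UMIs (percent, 6 libraries summed) by class of barcode, with the total under each name. Alas2 and haemoglobin have over 70% of their UMIs in barcodes with under 200 genes and over 50% haemoglobin, Fech 51.6%, and the other enzymes between 5.09% and 18.7%.

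Shares of barcodes with a UMI depend on depth and are given with a background. The share with an Alas2 UMI ran from 1.12% to 2.11% under 10% haemoglobin, 29.7% to 83.3% in the 10 to 50% bin and 75.8% to 100% over 50%. In 710 barcodes that carried microglial markers and under 10% haemoglobin, a cell type that should lack Alas2, 8 had an Alas2 UMI (1.13%, exact 95% interval 0.488% to 2.21%). The library shares under 10% haemoglobin lay within that interval. That bin was not even, though: with libraries summed, Alas2 had 0.148 UMIs per 10000 at 0 to 2% haemoglobin and 1.849 (0.600 to 4.315) at 5 to 10%. The microglial barcodes had a median depth of 628.5 UMIs, against 1859.5 UMIs in the over 50% bin, where haemoglobin made up 69.3% of all UMIs. Cpox was found in 3.38% of the microglial barcodes, Fech in 2.25%, Uros and Urod in 1.69% each, Ppox in 1.27% and Alad in 0.563%. Over 50% haemoglobin the mean share over 6 libraries was 89.9% for Alas2, 62.5% for Fech, 41.0% for Urod, 34.7% for Cpox, 20.2% for Alad, 15.8% for Uros and 11.5% for Ppox. Thinned to 200 non-haemoglobin UMIs per barcode, Alas2 was still found in 68.7% and Fech in 34.5%, while Ppox was found in 2.61%.

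The genes around the pathway were taken from lists, and their counts are descriptions. Of 18 carriers and helpers of haem synthesis in the tables, 10 passed the minimum; 9 were called higher in the first step, and in the second 9 were called higher and 1 lower. Their median log2 fold change was 3.49 in the first step and 1.15 in the second, against -0.07 in both for all tested genes, which is also the value to set beside the list medians of these steps further on. Of all tested genes, 29.8% were called higher in the first step, and 27.6% higher and 28.7% lower in the second. These shares are to be set beside the list counts further on. The iron-sulphur cluster protein gene Glrx5 and the mitochondrial iron importer gene Slc25a37 had log2 fold changes of 4.39 and 5.50 for over 50% minus under 10% (adjusted p of 9.989e-13 and 3.677e-12 by edgeR). Slc25a38, which carries glycine for the Alas2 reaction, stayed under the minimum with 40, 33 and 38 UMIs in the 3 bins from low to high haemoglobin, mean levels of 0.167, 1.63 and 2.32 UMIs per 10000 over 6 libraries. Alas1, the form of the first enzyme found in other tissues, had 89, 5 and 2 UMIs, mean levels of 0.382, 0.150 and 0.149.

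The exception among the carriers was Tmem14c, which moves protoporphyrinogen in the mitochondrion and was picked out after its values were seen. Its level ranged over libraries from 1.07 to 1.67 under 10% haemoglobin, from 6.66 to 24.7 in the 10 to 50% bin and from 1.03 to 4.70 over 50%. The upper bin fell below the middle one with no overlap, a log2 fold change of -2.34 (SE 0.35, adjusted p = 2.225e-05 by edgeR). The first step was 2.89 (adjusted p = 6.12e-08 by edgeR).

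Iron uptake was represented by 2 tested genes of 11, 1 called higher and 1 lower, too few for a median. Tfrc, the transferrin receptor gene, rose by 3.49 on the log2 scale over 50% against under 10% (adjusted p = 1.837e-08 by edgeR), with 3.09 in the first step and 0.40 in the second (adjusted p = 0.3008 by edgeR). Trf, the transferrin gene, went the other way, at -3.58 (adjusted p = 2.868e-07 by edgeR). In haem breakdown and export, 1 gene of 7 was tested: the biliverdin reductase gene Blvrb, at 4.39 (adjusted p = 9.989e-13 by edgeR). Hmox1, the haem oxygenase gene, had 45, 3 and 0 UMIs in the 3 bins from low to high, mean levels of 0.193, 0.100 and 0.

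Of 10 erythroid transcription factors, 3 passed the minimum, and all 3 were called higher over 50% than under 10%, with a median log2 fold change of 3.23 against -0.34 for all tested genes, of which 35.8% were called higher. As for the enzymes, sparse genes reach the minimum only through the bins where they are high, so this count is no evidence about the list, and the same holds for every list here. Klf1 had log2 fold changes of 4.50 in the first step and -0.04 in the second (adjusted p of 4.319e-10 and 0.9107 by edgeR), and, like Alad and Cpox, it was lower at 70% haemoglobin and over than at 50 to 70% in 6 of 6 libraries. Lmo2 and Nfe2 had 1.18 and 1.54 in the second step (adjusted p of 0.003198 and 0.004635 by edgeR). Gata1 had mean levels of 0.0523, 1.14 and 1.34 UMIs per 10000 from the low to the high bin, from 13, 28 and 21 UMIs. Red cell membrane and skeleton genes had 11 of 17 tested, all 11 called higher in the first step and 8 in the second, with medians of 5.20 and 1.14. Slc4a1, the anion exchanger gene, was at 7.41 over 50% against under 10%.

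Late erythroid genes moved mostly in the second step: 10 of 13 were tested, 8 were called higher in the first step and all 10 in the second, with medians of 2.07 and 3.08. Ube2l6 and Isg20 were at 6.66 and 6.63 over 50% against under 10%. Cell division genes moved mostly in the first: 12 of 13 tested were called higher there, with a median of 2.35. In the second, 2 were called higher and 4 lower, with a median of -0.37, against 27.6% higher and 28.7% lower of all tested genes. Mki67 was among the 2, at 0.46 (adjusted p = 0.04886 by edgeR), with Ccnb2, a mitotic cyclin gene, at 0.73, and Birc5, a mitotic regulator, was at -0.05 (adjusted p = 0.8927).

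The genes closest to each enzyme, by Pearson's r of log2(CPM + 10) over the 18 sums, are a description only, since all points share their bins and libraries. Trim10 and Ube2l6 were among the 3 closest to Alas2, with r of 0.994 and 0.986. Gpx1, Hagh and Epb4.2 were closest to Fech (0.991, 0.989 and 0.988), and Glrx5, Prdx2 and Fech to Urod (0.989, 0.985 and 0.983). Klf1, Alad and Hemgn were closest to Cpox (0.970, 0.969 and 0.968), and Atpif1, Ctse and Hemgn to Alad (0.975, 0.974 and 0.973). Among the 5 tested enzymes, Alad and Cpox were each other's closest members, and Alas2 and Alad were the farthest apart at 0.900.

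The groups were compared within each bin over libraries, 2 against 2, with a fit of all 6 libraries. The SOD1-Veh libraries serve in 2 of the 3 comparisons, as do SOD1-Nec and WT-Veh, so the comparisons are not independent. The share of barcodes in the 10 to 50% bin was 14.1% and 14.0% in SOD1-Nec, against 3.01% and 2.75% in SOD1-Veh and 6.41% and 3.97% in WT-Veh. SOD1-Nec stood above both other groups with no overlap, 4.88-fold above SOD1-Veh by the means; the exact permutation test gave p = 0.3333, the smallest value that 2 against 2 allows. Over 50% haemoglobin the share was 4.99% and 6.55% in SOD1-Nec, 7.52% and 10.3% in SOD1-Veh and 8.35% and 5.60% in WT-Veh. The direction of SOD1-Nec minus SOD1-Veh there, -3.14 percentage points, turned to 5.15 when barcodes with at least 100 genes were admitted.

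Within 10 to 50% haemoglobin, Alad and Fech were lower in SOD1-Nec, with SOD1-Veh as the comparison. Alad had the levels 4.28 and 3.21 in SOD1-Nec against 14.6 and 10.8 in SOD1-Veh, a log2 fold change of -1.47 (SE 0.36, adjusted p = 0.01241 by edgeR over 537 genes). Fech had 4.44 and 3.36 against 10.96 and 10.2, a log2 fold change of -1.15 (adjusted p = 0.04727 by edgeR). Both genes were lower in SOD1-Nec within each set of tables, and both calls stood with the replicate number as a block (adjusted p of 0.006548 and 0.04282 by edgeR). Of all genes tested in this comparison 15.1% were called, 4.66% being lower in SOD1-Nec. Urod was at -1.03 (adjusted p = 0.07981), Cpox at -0.83 (adjusted p = 0.05959) and Alas2 at -0.37 (adjusted p = 0.5408), each by edgeR and short of the threshold. For these 3 the SOD1-Nec libraries still lay below both SOD1-Veh libraries.

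The make-up of the bin differed between these groups as well. Neutrophil markers, 6 of 6 in the tables, summed to 181.6 and 353.8 UMIs per 10000 in SOD1-Nec, against 3.65 and 5.37 in SOD1-Veh, where Camp and Ltf were at 0. Microglial markers, 9 of 9, summed to 30.1 and 24.0 against 2.44 and 2.69, with Cx3cr1, P2ry12 and Csf1r at 0 in SOD1-Veh. Early erythroid markers summed to 96.4 and 91.1 in SOD1-Nec against 199.7 and 264.4 in SOD1-Veh, and late ones to 71.1 and 61.0 against 102.9 and 96.7. At least 3 early markers were found in 33 of 93 and 31 of 111 barcodes of SOD1-Nec, against 11 of 12 and 11 of 12 of SOD1-Veh. The median mitochondrial share was 7.64% and 7.89% in SOD1-Nec against 2.55% and 2.91% in SOD1-Veh. Median depth was 668 and 624 UMIs in SOD1-Nec against 1527 and 1773 in SOD1-Veh, and the median number of genes 271 and 257 against 560.5 and 673. Oligodendrocyte markers summed to 225.1 and 223.4 against 60.3 and 80.1. The part of these differences in the Alad and Fech values was not tested, apart from the subset that follows.

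Among barcodes of the bin with at least 3 early markers, a subset chosen after the data were seen, the difference was smaller. Alad had 7.80 and 5.27 in SOD1-Nec against 13.1 and 11.03 in SOD1-Veh, a log2 fold change of -0.84 (adjusted p = 0.2779 by edgeR). Fech had 5.70 and 5.97 against 11.2 and 10.5, at -0.86 (adjusted p = 0.237 by edgeR). The groups did not overlap for either gene, and no member was called in this subset. DESeq2 called none of the 5 tested members in the whole bin, with 1 at an unadjusted p under 0.05, and edgeR called none when SOD1-Nec library 1, SOD1-Nec library 2 or SOD1-Veh library 1 was left out, and 1 when any of the other 3 libraries was.

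**Figure D5:**
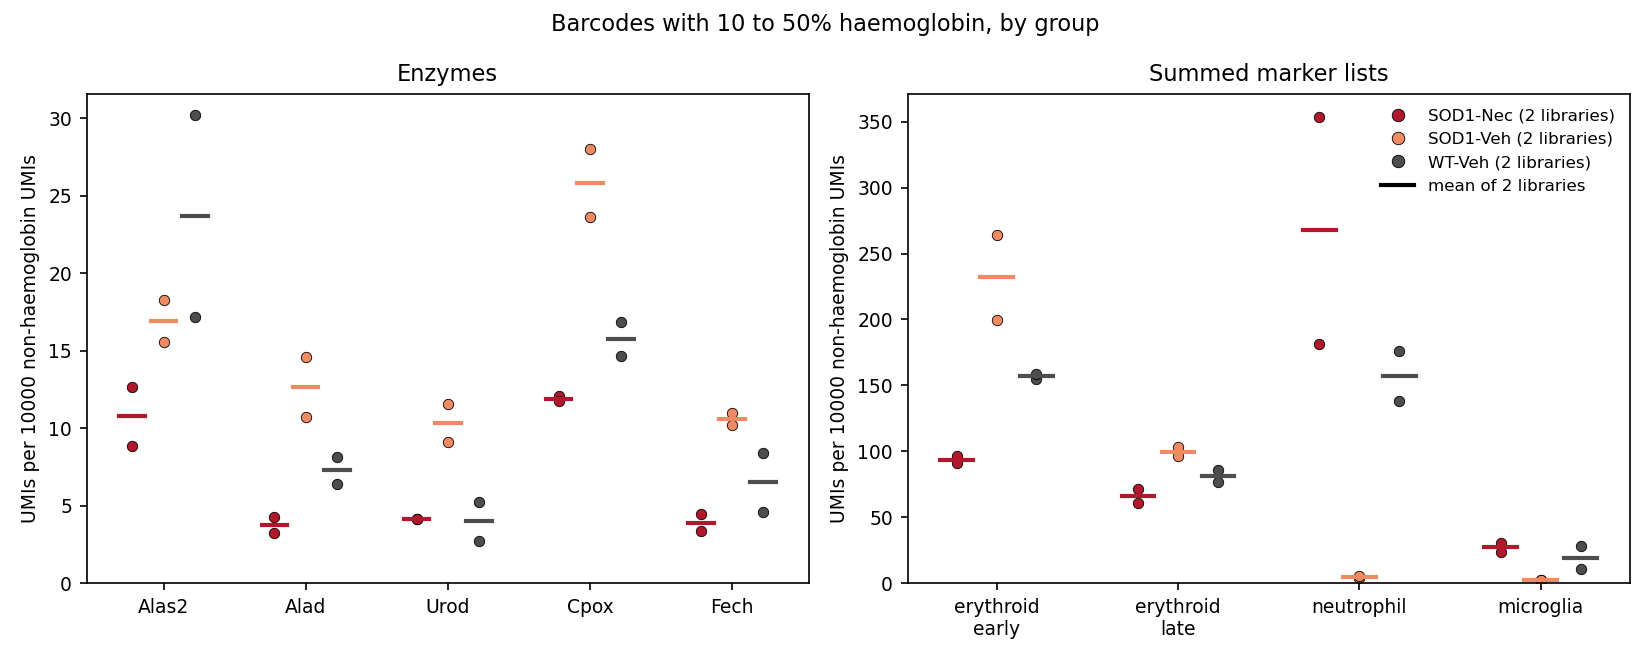
Barcodes with 10 to 50% haemoglobin: levels of 5 enzymes (left) and of 4 summed marker lists (right), in UMIs per 10000 non-haemoglobin UMIs. Points are libraries and lines are means of 2; both SOD1-Nec libraries lie below both SOD1-Veh libraries for each enzyme shown and for the erythroid lists, and above them for neutrophil and microglial markers.

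Against WT-Veh, no enzyme was called in the 10 to 50% bin in either SOD1 group. SOD1-Nec minus WT-Veh gave -0.98 for Alas2 (adjusted p = 0.4069) and -0.94 for Alad (adjusted p = 0.4082), with 2 of 5 members at an unadjusted p under 0.05, and 0.186% of all tested genes were called (edgeR). SOD1-Veh minus WT-Veh gave its lowest adjusted p for Urod, at 1.00 (0.2708), with 1 of 5 at an unadjusted p under 0.05, and 4.28% of all tested genes were called (edgeR). DESeq2 called none of them either, with 1 and 0 at an unadjusted p under 0.05 in these comparisons.

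Over 50% haemoglobin no member was called between groups by edgeR or DESeq2, where 475 genes were tested and 0.0% were called for SOD1-Nec minus SOD1-Veh, 0.421% for SOD1-Nec minus WT-Veh and 0.632% for SOD1-Veh minus WT-Veh. The widest difference was that of Alas2, 52.7 and 53.4 in SOD1-Nec against 97.1 and 132.1 in WT-Veh, a log2 fold change of -1.13 (SE 0.39, adjusted p = 0.1971 by edgeR; 1 of 5 members at an unadjusted p under 0.05 by either tool). These groups did not overlap. The difference was -1.44 when WT-Veh library 1 was left out. It passed the threshold when barcodes with at least 100 genes were admitted (-1.25, adjusted p = 0.005392 by edgeR). In 18 of 20 alternatives it stayed without a call, and it came as near to 0 as -0.16. Among barcodes with at least 3 early markers it was -0.73 (adjusted p = 0.4277 by edgeR). SOD1-Veh, at 93.3 and 52.7, lay across the gap, with -0.67 against WT-Veh (adjusted p = 0.596) and SOD1-Nec at -0.46 against SOD1-Veh (adjusted p = 0.837). Late erythroid markers moved alike, at 240.0 and 294.6 in SOD1-Nec, 361.2 and 311.2 in SOD1-Veh and 410.3 and 496.5 in WT-Veh. So did the median haemoglobin share, at 58.4% and 64.3%, 70.1% and 66.0%, and 69.6% and 74.4%; their part in the difference was not tested. In the barcodes with under 200 genes and over 50% haemoglobin, Alas2 had 65.9 and 76.5 in SOD1-Nec, 133.6 and 116.3 in SOD1-Veh and 145.0 and 137.0 in WT-Veh, with SOD1-Nec below both other groups. Haemoglobin made up 73.0% and 76.0% of their UMIs in SOD1-Nec, 85.0% and 83.1% in SOD1-Veh and 82.7% and 82.6% in WT-Veh. Its part in these Alas2 values was not tested.

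Neither the under 10% bin nor the sum of all retained barcodes gave a call for any member. In the under 10% bin 7074 genes were tested and 0.551% were called for SOD1-Nec minus SOD1-Veh, 0.0424% for SOD1-Nec minus WT-Veh and 0.905% for SOD1-Veh minus WT-Veh; the adjusted p of the tested members ran from 0.475 to 0.984 (edgeR, 1 of 5 at an unadjusted p under 0.05 in SOD1-Veh minus WT-Veh and none in the others; DESeq2 none). Over all retained barcodes all 7 members were tested among 7536 genes, with adjusted p from 0.504 to 0.997 (edgeR; 1 at an unadjusted p under 0.05, Alas2 in SOD1-Nec minus WT-Veh, by edgeR and by DESeq2). The shares of all genes called there were 0.478%, 0.0398% and 0.69% in the same order of comparisons.

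Whether the bin effect itself differed between groups was tested as an interaction over 1074 genes. No member was called in any of the 9 contrasts by edgeR or by DESeq2. The smallest adjusted p belonged to Cpox, whose first step differed by -1.38 on the log2 scale for SOD1-Nec minus SOD1-Veh (adjusted p = 0.05035) and by 1.60 for SOD1-Veh minus WT-Veh (adjusted p = 0.07342), by edgeR. For SOD1-Nec minus SOD1-Veh in the first step, 4 of 7 members had an unadjusted p under 0.05 by edgeR and 2 by DESeq2, and 6.89% of all tested genes were called. For SOD1-Veh minus WT-Veh these counts were 2 and 2, and 1.3% of genes were called, and for SOD1-Nec minus WT-Veh they were 1 and 1, with 1.02%. In the second step the share of genes called was 2.33% for SOD1-Nec minus SOD1-Veh, 0.279% for SOD1-Nec minus WT-Veh and 0.931% for SOD1-Veh minus WT-Veh, with 0, 1 and 1 members at an unadjusted p under 0.05 by either tool. Between the over 50% and under 10% bins it was 0.186%, 0.0931% and 0.279% in the same order, with no member at an unadjusted p under 0.05 by either tool.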

How the data were processed

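The authors deposited 1 table of UMI counts per library, genes by barcodes, as whole numbers that were not normalized; per the submitters' processing notes the genome build was mm9, and the aligner and counter were not given in the sources used here. All 6 libraries are Drop-seq of mouse spinal cord, and groups come from the titles, genotypes and treatments in the labels. Barcodes with at least 200 genes and at most 20% mitochondrial UMIs were kept, without removing the 29 that Scrublet (scanpy 1.11.5) marked as doublets. Sums per library and haemoglobin bin (under 10%, 10 to 50%, over 50%), with the 4 haemoglobin genes taken out of table and totals, were tested with edgeR 4.0.16 (R 4.3.3): TMM factors, filterByExpr, quasi-likelihood F test, Benjamini-Hochberg over all tested genes, threshold 0.05. Bins were fitted with library as a block; groups were fitted over 6 libraries without one. The fits were tested on simulated data with known changes. DESeq2 1.42.0, other minimums, cuts and scalings and leaving out each library were tried. Intervals cover counting error only; UMIs remove PCR copies. Retained barcodes had median depths of 526 to 727 UMIs over libraries. There were 23 barcodes within 8 to 12% haemoglobin and 27 within 48 to 52%. Epb41 and Epb42 were found under the older symbols Epb4.1 and Epb4.2, and Flvcr1 and Flvcr2 as Mfsd7b and Mfsd7c; Ahsp is not analysed here. Named genes are the 7 enzymes, up to 3 genes per list with the smallest p of over 50% minus under 10%, a few haem and iron genes looked up in any case, and the 3 genes most like each tested enzyme; Tmem14c, Bpgm and Sod1 were added, and some genes that this rule names are not reported here, though list counts and medians include them. The members and lists were chosen with earlier results of these data known.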

Additional observations from a re-analysis of the deposited data

Results flagged for a closer look

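These values come from the barcodes with under 200 genes and over 50% haemoglobin, which the comparisons leave out, where an enzyme's level in a SOD1 group was above that of both WT-Veh libraries. Values are means of 2 libraries in UMIs per 10000 non-haemoglobin UMIs, and groups of 2 allow no outlier test. Cpox had 2.188 in SOD1-Nec (2.47 and 1.91) against 1.26 and 0.609 in WT-Veh. Uros had 0.3097 in SOD1-Nec against 0.126 and 0 in WT-Veh, from 9 UMIs. Ppox had 0.1021 in SOD1-Nec and 0.3723 in SOD1-Veh, from 3 UMIs each, and no UMI in WT-Veh. Fech had 23.12 in SOD1-Veh (22.6 and 23.7) against 19.6 and 15.1 in WT-Veh. In SOD1-Nec, Fech went the other way, at 11.6 and 11.3, below both WT-Veh libraries. None of these differences was tested. Haemoglobin made up 73.0% and 76.0% of the UMIs of these barcodes in SOD1-Nec, against 82.7% and 82.6% in WT-Veh.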

How the results depend on the processing

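The increases of Alas2, Alad, Urod, Cpox and Fech over under 10% haemoglobin, in both upper bins, and the second-step increases of Alas2 and Fech kept their direction and call in every alternative run (19 or 20 each). Log2 values of the second step of Alad turned to -0.23 without TMM factors, -0.10 without a count minimum, -0.048 with bins cut at 5% and 40%, -1.45 at 20% and 60%, -0.61 with at least 100 genes and -0.062 in early-marker barcodes, and ran from -0.26 to 0.15 with 1 library left out. Those of Cpox turned to -0.034 without TMM factors, -0.93 with bins cut at 20% and 60% and -0.22 with at least 100 genes, and ran from -0.045 to 0.30 with 1 library left out. The 2 member calls of SOD1-Nec minus SOD1-Veh in the 10 to 50% bin became 4 without TMM factors and with at least 100 genes, 1 with up to 40% mitochondrial UMIs, without Scrublet doublets and with either other pair of bin cuts, 0 with DESeq2, without a minimum, with at least 400 genes and in early-marker barcodes, and 0 to 1 with 1 library left out; Alas2 there was at 0.016 without a minimum. Over 50% haemoglobin, Alas2 for SOD1-Nec minus WT-Veh ran from -1.44, without WT-Veh library 1, to -0.16 over 20 alternatives. A call appeared for it with at least 100 genes (1). In the interaction of the first step, 1 appeared for SOD1-Nec minus SOD1-Veh without TMM factors, with bins cut at 20% and 60%, with at least 100 genes and with early-marker barcodes taken out of the low bin (0 to 1 with 1 library left out, the 1 being Cpox without SOD1-Nec library 1), and 1 for SOD1-Veh minus WT-Veh with at least 100 genes and with those barcodes taken out; over 50% minus under 10% gave 0 to 1 for SOD1-Veh minus WT-Veh with 1 library left out, the 1 without WT-Veh library 1. The share of barcodes over 50%, SOD1-Nec minus SOD1-Veh, was -3.14 percentage points and turned to 5.15 with at least 100 genes. Shares with a UMI over 50% fell on thinning to 200 UMIs, to 68.7% for Alas2, 6.72% for Alad, 5.49% for Uros, 16.1% for Urod, 17.8% for Cpox, 2.61% for Ppox and 34.5% for Fech. The settings with at least 100 genes and with early markers were chosen after seeing the data; thinning lowers shares by construction, and the cause of the other changes was not tested.

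Tables with the same replicate number list the same genes, so the number marks a shared set of tables, but same-numbered libraries did not all deviate together (correlations of 0.17 for SOD1-Nec with SOD1-Veh, -0.27 for SOD1-Nec with WT-Veh and -0.18 for SOD1-Veh with WT-Veh over 7536 genes), and the labels used here name no shared animal, batch or day; with the replicate block, the 10 to 50% bin gave 2 member calls for SOD1-Nec minus SOD1-Veh and no other member call changed. Depth limits Uros and Ppox most, with 47 and 32 UMIs over 50% haemoglobin, and 12 barcodes per SOD1-Veh library stand behind the 10 to 50% bin.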
